A study of Mus musculus with 14 samples.

Results

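Motor proteins that walk along microtubules were examined in single retinal ganglion cells (RGCs) of the adult mouse. The genes were those of the kinesins (symbols beginning with Kif and a digit), the kinesin light chains (Klc), cytoplasmic dynein (Dync, Dynl) and dynactin (Dctn), read from probe sets annotated to 1 gene. They numbered 59 of the 18193 genes measured. By known role, 34 were placed with axonal transport, 12 with mitosis, 8 with cilia and 5 with other functions.

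RGCs send axons through the optic nerve to the brain, so cargo made in the cell body has to travel far. Most kinesins walk toward the plus ends of microtubules, which point away from the cell body in axons, and carry vesicles, mitochondria and other cargo outward. Cytoplasmic dynein, which works together with the dynactin complex, walks toward the minus ends and brings cargo back. Another set of kinesins builds and moves the mitotic spindle, and is best known from dividing cells.

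The data came from 14 tdTomato+ cells, 1 array per cell, which formed 1 group and are called cell 1 to cell 14 here. Retinas of adult offspring of PV-Cre mice (Cre under the control of Pvalb) and Ai9 mice (a tdTomato reporter switched on by Cre) were taken apart with the enzyme papain, and fluorescent cells were collected by pipette. The labels call the strain background mixed and name 129P2/OlaHsd for the PV-Cre line and C57BL/6 and 129 SV for Ai9, whereas the study's methods place Ai9 on C57BL/6J and add C57BL/6 to the PV-Cre line. Every tdTomato+ cell carried both alleles. No animal was named for any cell, so an SD describes the spread between cells and no groups were tested.

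Detection of a gene in a cell required 8 times the array's median signal or more, a threshold that lay between 64.2 in cell 14 and 439.7 in cell 1. Detected probe sets ranged from 4191 in cell 5 to 11910 in cell 12. Each cell held 9 to 11 of the 11 RGC markers measured. The study had screened its libraries by PCR for Sncg, which is among these markers, and against rhodopsin and glutamine synthetase. Detection of Sncg was therefore selected for. Rod markers were most numerous in cells 3 and 6, with 10 and 9 of 13, against 1 to 3 in each other cell. Müller glia markers numbered 0 to 5 of 10. Over all cells, 20.9% of the rod marker values and 24.3% of the Müller glia marker values were detected, against 25.2% over all genes. Signals of different genes come from different probes and share no scale, so a level is compared only within a gene, from cell to cell.

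Axonal transport motors were detected in most cells, and mitotic motors rarely were. Of the 59 motor genes, 24 were detected in at least 7 cells (40.7%), where the share among all genes was 24.8%. In all 14 cells, 7 of them were detected (11.9%, against 2.64% of all genes). In at least 1 cell, 41 were detected (69.5%, against 58.2%), and 18 were found in no cell. The axonal genes had 23 of 34 in at least 7 cells, and the median axonal gene was detected in 12 cells. None of the 12 mitotic genes reached 7 cells, and 11 of them were detected in no cell. This count depends on the classes: Kif2a, which acts in spindles and also in neurites, was placed with other functions and was detected in 11 cells. For comparison, the median over all genes was 1 cell.

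**Figure D1:**
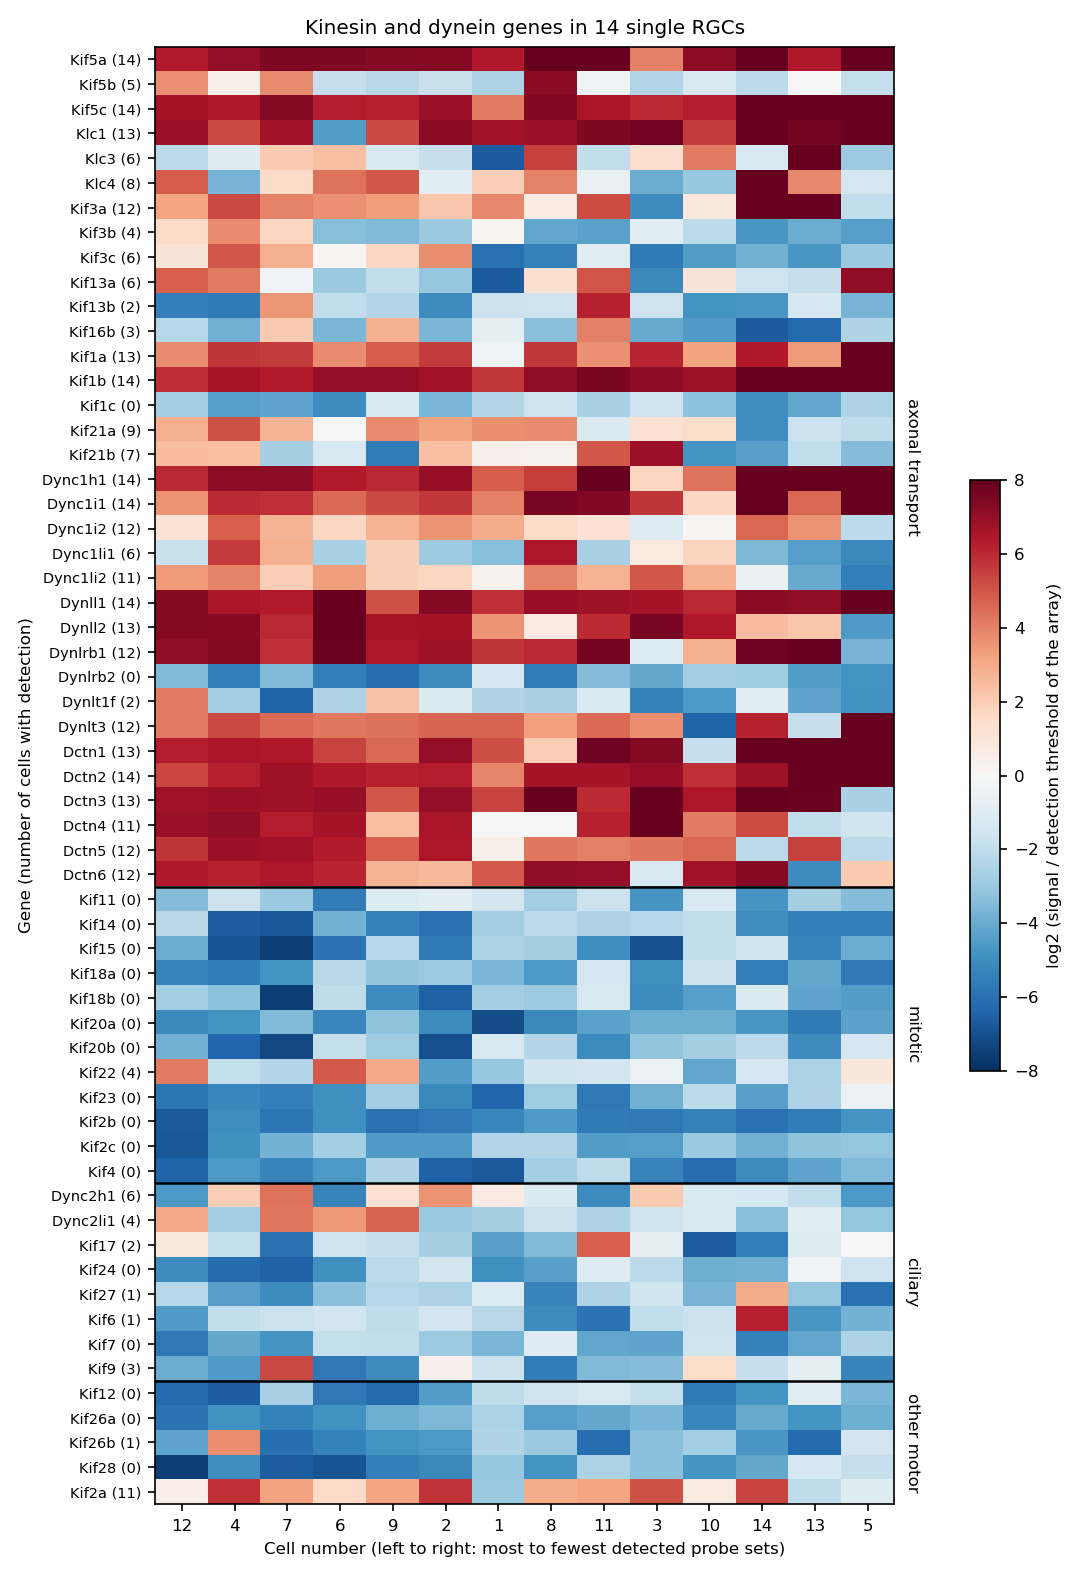
Signal of each of the 59 motor genes (rows, with the number of cells with detection) in each of the 14 cells (columns, ordered by detected probe sets), as log2 of the signal over the detection threshold of the array, with colours ending at -8 and 8. Red cells of the map are detections: they fill most of the axonal transport block, where 23 of 34 genes reach 7 cells, and occur in the mitotic block only for Kif22.

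Within each cell the same contrast was seen. The share of axonal genes detected averaged 67.4% ± 12.6 (SD, n = 14), from 38.2% in cell 5 to 85.3% in cell 7. The share of mitotic genes averaged 2.38% ± 3.91 and was 0 in 10 cells. In cells 5, 6, 9 and 12 it was 8.33%, which is 1 gene of 12. The difference between the axonal and the mitotic share was 65.1 ± 13.6 percentage points, with the smallest value, 29.9, in cell 5. It was above 0 in 14 of 14 cells. Against the share of all genes, which was 25.2% ± 7.21, the axonal share was higher by 42.2 ± 7.71 points, again in 14 of 14 cells. The 14 axonal kinesin heavy chains taken alone had 7 in at least 7 cells (50%, against 24.8% of all genes). Dynein-1 with the dynein light chains and dynactin had 14 of 17 (82.4%).

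**Figure D2:**
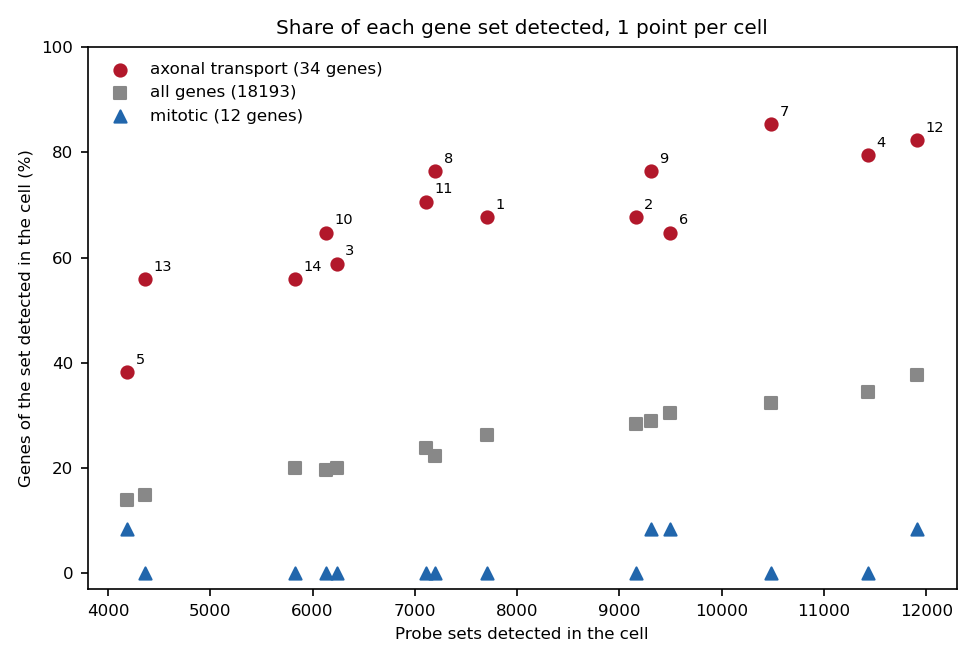
Percentage of the axonal transport genes (red circles, cell numbers beside them), all genes (grey squares) and mitotic genes (blue triangles) detected in each of the 14 cells, against the number of probe sets detected in that cell. The axonal share runs from 38.2% to 85.3% and lies above the share of all genes in every cell, while the mitotic share is 0 or 8.33%.

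Cells that gave more probe sets also gave more motors. The number of motor genes per cell ran from 14 in cell 5 to 33 in cell 7, and its correlation with the number of detected probe sets was r = 0.895 (Spearman's rho = 0.885, n = 14 cells). It was r = 0.879 without cells 4 and 12, the farthest from the median. Both counts come from the same arrays and share their threshold, so the value is a description of how detection rises with yield.

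Kinesin-1, the main motor of fast outward transport, is built from heavy chains that walk and light chains that bind cargo. The neuronal heavy chain Kif5a was detected in all 14 cells, with a lowest signal of 2027, a median of 24710 and a highest of 52351. Kif5c, also a neuronal heavy chain, was detected in all 14 cells as well (7032, 13476 and 40283). These counts rest on 1 probe set of each gene. By the mean log2 signal of the gene's probe sets, Kif5a was detected in 11 cells and Kif5c in 3. Here and below, a mean of probe sets is taken over log2 signals. In Kif5a the lowest signal belonged to cell 3 and stood apart from the next, 9348 in cell 13. Cell 3 also held the most rod markers, whose part in this value was not tested.

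Kif5b, the heavy chain found in most tissues, passed the threshold in 5 cells. Its signal was 17460 in cell 8, 1736 in cell 7, 1608 in cell 12, 113 in cell 4 and 112 in cell 13. The values in cells 4 and 13 lay just above thresholds of 83.2 and 108. The other 9 cells had signals from 15.0 to 124, each below its own threshold. Kif5b gained the most cells from its other probe sets. It has 6, and with a detection by any of them it was found in 11 cells, in 7 of these by at least 2 probe sets, whereas by the mean of the 6 it was found in 3. Cells 3, 5 and 14 had none.

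**Figure D3:**
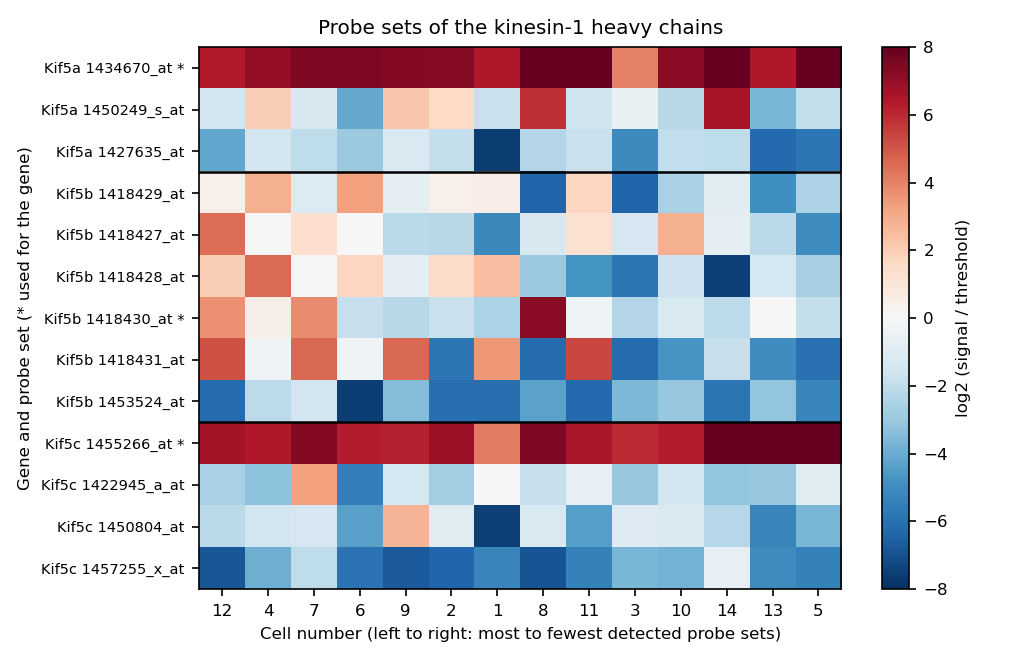
All probe sets of Kif5a, Kif5b and Kif5c (rows, the one used for the gene marked with an asterisk) in the 14 cells (columns, ordered by detected probe sets), as log2 of signal over threshold, with colours ending at -8 and 8. In Kif5a and Kif5c 1 probe set is above threshold in all 14 cells and the others in fewer, while the 6 probe sets of Kif5b are above threshold in different cells, 11 in all.

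Among the light chains, Klc1 was detected in 13 cells (5.19, 16390 and 46011 for the lowest, median and highest signal). The missing cell was cell 6, where the signal was far below the next lowest, 3304. By the mean of its 3 probe sets Klc1 was detected in 7 cells. Klc4 was detected in 8 cells (6.41, 961 and 15944), cell 6 among them. Klc3, better known from testis than from brain, was detected in 6 cells (4.35, 56.3 and 38718), with its highest signal in cell 13 and the next in cells 8 and 10, at 5173 and 5169. In every cell Kif5a, Kif5c and at least 1 light chain were thus detected, while all 3 heavy chains were found together in 5 cells.

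The kinesin-3 motors Kif1a and Kif1b carry precursors of synaptic vesicles, and a form of Kif1b carries mitochondria. Kif1b was detected in all 14 cells (7677, 19708 and 100074). Of its 7 probe sets, 2 were detected in all 14 cells and the other 5 in 0 to 2, and by the mean of the 7 it was detected in 3. Kif1a was detected in 13 cells (341, 4601 and 19489), and its lowest signal, in cell 1, missed the threshold of 439.7 there. At the fixed signal of 1000, Kif1a was again counted in 13 cells. Its other probe set was detected in 1 cell, and by the mean of both Kif1a was detected in 11.

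The remaining kinesin-3 genes were found in fewer cells. Kif13a and Kif13b, which move endosomes and membrane proteins, were detected in 6 and 2 cells. Kif16b, an early endosome motor, was detected in 3 cells, and Kif1c in none, with a highest signal of 86.3. The kinesin-4 motors Kif21a and Kif21b, which act on microtubule growth in neurons, were detected in 9 and 7 cells. At a fixed signal of 1000 they were counted in 5 and 2 cells, and by the mean of their probe sets in 6 and 3. Kif21b ranged from 3.16 to 14268, with its highest value in cell 3.

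Kinesin-2 pairs Kif3a with Kif3b or Kif3c and binds cargo through the accessory protein Kifap3. Kif3a was detected in 12 cells (3.52, 1568 and 26460) and missed in cells 3 and 5. Another of its probe sets was above threshold in cell 3 (3754). By any probe set Kif3a was found in 13 cells, with cell 5 missing. Kif3c was detected in 6 cells (2.45, 39.9 and 2628) and Kif3b in 4 (2.53, 14.8 and 1158). For both, the highest value was in cell 4. The probe set of Kif3b is of a kind that can read related transcripts (_s_at), and without such probe sets Kif3b was detected in 1 cell. By the mean of their probe sets, Kif3b and Kif3c were detected in 1 and 2 cells, and at a fixed signal of 1000 also in 1 and 2. By the chosen probe sets, Kif3a came with a partner heavy chain in 7 cells. In the other 5 cells with Kif3a, cells 8, 10, 11, 13 and 14, neither partner passed the threshold, and in cell 14 alone of these another probe set of a partner did. Kifap3 was detected in all 14 cells.

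**Figure D4:**
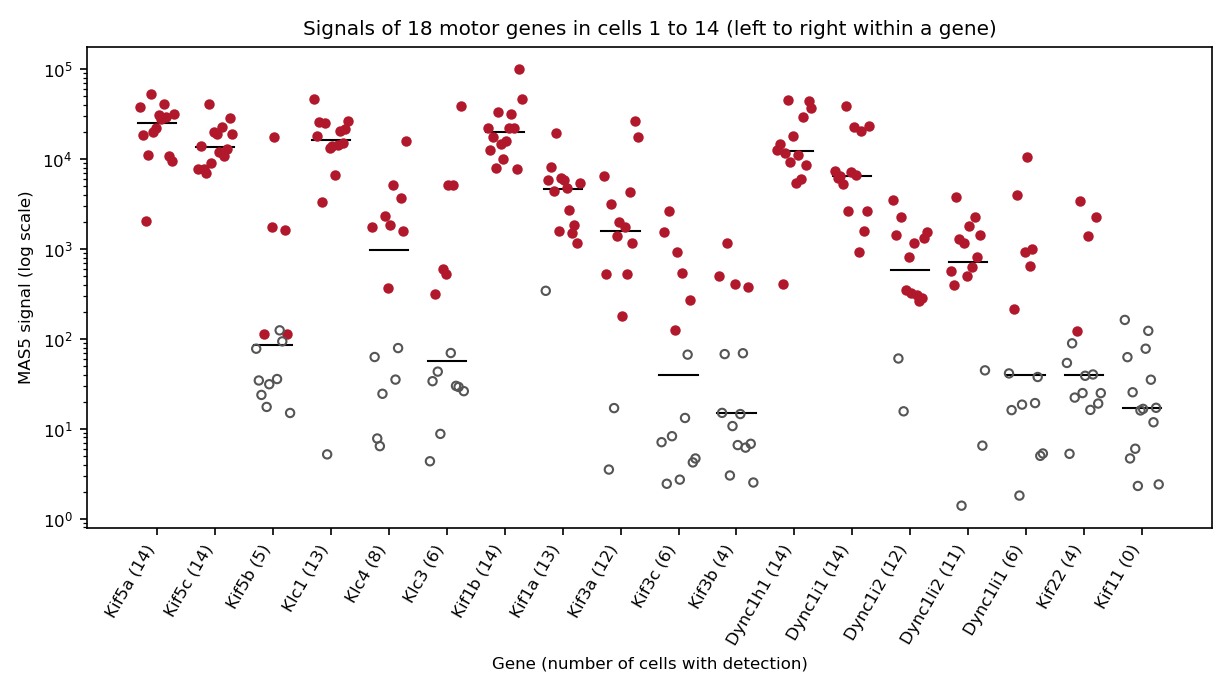
MAS5 signal on a log scale of 16 axonal transport genes and the mitotic genes Kif22 and Kif11, each with 14 points for cells 1 to 14 from left to right, filled where detected and open where not, and a line at the median. Kif5a, Kif5c, Kif1b, Dync1h1 and Dync1i1 are filled in all 14 cells, Kif22 in 4 and Kif11 in none.

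Cytoplasmic dynein-1 was followed through its chains. Dync1h1, the heavy chain that holds the motor, was detected in all 14 cells (410, 12097 and 45287). Of its 2 probe sets the other was detected in no cell, and by their mean Dync1h1 was detected in 13. The lowest signal of Dync1h1 was in cell 3, like that of Kif5a, and the next, 5401 in cell 8, was far above it. Dync1i1, the intermediate chain that is most common in neurons, was detected in all 14 cells (928, 6498 and 38762), and Dync1i2, its relative found in most tissues, in 12 (15.6, 582 and 3471).

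The light intermediate chains connect the motor to cargo adaptors. Dync1li2 was detected in 11 cells (1.40, 719 and 3788) and Dync1li1 in 6 (1.81, 39.4 and 10373). At a fixed signal of 1000 they were counted in 6 and 2 cells, and Dync1i2 in 6. A heavy chain with an intermediate and a light intermediate chain was found together in 11 cells. Cells 5, 13 and 14, where no light intermediate chain was detected, had the fewest detected probe sets of all. All 5 chains occurred together in cells 4, 7, 8, 9 and 10.

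Light chains of dynein also serve other complexes. Dynll1 was detected in all 14 cells (5672, 14790 and 31623), and Dynll2 in 13. The probe set of Dynll2 is of a kind that can read related transcripts (_s_at), and its other probe set was detected in 5 cells. Dynlrb1 and Dynlt3 were each detected in 12 cells, also by _s_at probe sets. Dynlrb1 has no other probe set, while Dynlt3 was again detected in 12 cells without that kind. Dynlt1f was detected in 2, and Dynlrb2, which is known from ciliated cells, in none. The Dynlt1 genes share probe sets with their near copies, so Dynlt1f is uncertain.

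By the chosen probe sets, dynactin was the motor group with the fullest detection, with 89.3% of its values detected, against 25.2% over all genes. All 6 measured genes were detected in at least 11 cells, whereas 24.8% of all genes reached 7. Dctn2 (dynamitin), which joins the arm of the complex to its filament, was detected in all 14 (5253, 11723 and 31189). Dctn1 (p150Glued), the arm that binds microtubules and dynein, was detected in 13 (81.1, 12936 and 44557), with cell 10 below threshold. Dctn3 was detected in 13 (10.8, 14967 and 32144), with cell 5 below. The members at the pointed end, Dctn4, Dctn5 and Dctn6, were detected in 11, 12 and 12 cells (21.9, 6846 and 39483 for Dctn4, 14.2, 4747 and 12902 for Dctn5, and 3.26, 8742 and 31308 for Dctn6). Dctn4 reached 11 cells by 1 of its 6 probe sets, the other 5 being detected in 0 to 4 cells, and by their mean it was detected in 2. By the chosen probe sets, all 6 genes were found together in 8 cells, and at least 5 in every cell except cells 5 and 13.

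The 7 genes detected in every cell by the chosen probe set were Kif5a, Kif5c, Kif1b, Dync1h1, Dync1i1, Dynll1 and Dctn2. Each had its highest signal in a cell of low yield, cell 13 for Kif1b and cell 5 for the other 6. Taking genes detected in every cell leaves out those low in cell 5 or 13, such as Dctn3 (10.8 in cell 5). That choice favours genes high in these cells, so the values below describe the 7 genes only. For Kif1b, log2 signal fell as the number of detected probe sets rose, with r = -0.87 (rho = -0.89, n = 14 cells) and r = -0.81 without cells 4 and 12. For Dctn2, r was -0.71 (rho = -0.66), and -0.56 without these cells. The other 5 genes had r from -0.56 for Kif5c to -0.15 for Dync1h1, and that of Kif5a turned to 0.05 without the same cells. Arrays are scaled to a common trimmed mean, which these points share, and the part of that scaling was not tested.

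Mitotic kinesins lay below the threshold in nearly every cell. Kif22 (Kid), which binds chromosomes and pushes their arms along the spindle, was the single exception. Its signal was 3375 in cell 6, 2281 in cell 12, 1399 in cell 9 and 123 in cell 5, and at most 89.0 in the other 10 cells (lowest 5.27, median 39.5). The value in cell 5 lay within 2-fold of the threshold. Cell 6 was also a cell with many rod markers, whose part in its Kif22 signal was not tested. The 3 probe sets of Kif22 were detected in 4, 3 and 1 cells. Those detected in 4 and 3 cells are of kinds that can read related transcripts (_x_at and _s_at). The remaining probe set was detected in cell 9 alone (2787). It read 40.8 in cell 6, 26.4 in cell 12 and 7.23 in cell 5, so the detections in these cells are uncertain.

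The other 11 mitotic genes were detected in no cell, by any of their probe sets. They include Kif11 (Eg5), which pushes spindle poles apart, Kif15, which helps to keep them apart, and Kif18a and Kif18b, which act on microtubule plus ends. Kif2b and Kif2c take microtubules apart, Kif4 binds chromosomes, and Kif14, Kif20a, Kif20b and Kif23 act at the division of the cell body. Their highest signal in any cell was 177, for Kif20b in cell 1, which has the highest threshold. Markers of dividing cells were read beside them. Of 15 measured, 13 were detected in no cell (86.7%, against 41.8% of all genes), Aurka in cell 10 (1177) and Plk1 in cell 5 (78.2).

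Promoters of the motor genes were also read. Windows of 300 bases, from 250 before to 50 after the start, came from RefSeq on GRCm38.p6, and 11 mitotic and 26 axonal genes had at least 1. They were searched on both strands for TTTGAA, the letters of the cell cycle homology region (CHR) known from genes that are silent outside of division, and for CCAAT. The letters TTTGAA occurred in 9 of 11 mitotic genes (81.8%), 2 of 26 axonal genes (7.69%) and 20.2% of all 27025 genes. The letters CCAAT occurred in 7 of 11, in 10 of 26 (38.5%) and in 41.1% of all. Both were found in 6 of 11 mitotic genes, in 0 of 26 axonal genes and in 7.97% of all. A match describes letters, and whether it is a site or acts on the levels seen here was not tested. Below, the last 100 bases before the start are shown for Kif11 and Kif22, which hold both motifs, for Kif15, which holds TTTGAA alone, and for Kif5c, which holds neither, with matches on either strand in capitals (TTCAAA is the reverse complement of the CHR letters, and ATTGG that of the CCAAT letters).
Kif11 (chr19:37376282-37376381, plus strand): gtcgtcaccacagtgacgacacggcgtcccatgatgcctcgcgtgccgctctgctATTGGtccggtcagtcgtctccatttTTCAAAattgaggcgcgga
Kif15 (chr9:122950981-122951080, plus strand): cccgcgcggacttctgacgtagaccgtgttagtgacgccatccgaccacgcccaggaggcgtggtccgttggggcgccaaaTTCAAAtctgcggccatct
Kif22 (chr7:127042421-127042520, minus strand): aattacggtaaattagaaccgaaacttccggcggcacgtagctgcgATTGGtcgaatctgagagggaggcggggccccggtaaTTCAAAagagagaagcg
Kif5c (chr2:49619186-49619285, plus strand): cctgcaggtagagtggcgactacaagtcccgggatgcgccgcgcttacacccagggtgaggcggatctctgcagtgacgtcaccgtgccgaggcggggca

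In the printed stretches the CHR letters begin at -19 in Kif11, -19 in Kif15 and -17 in Kif22, counted back from the start. Elsewhere the CHR letters lay further off or past the start, at -228 in Kif14, -103 in Kif2c, 3 in Kif23, 4 in Kif18b, 8 and 14 in Kif20b and 20 in Kif4, with second matches at -234 in Kif15 and -215 in Kif22. Among axonal genes they lay at -44 in Kif1a and -207 in Dctn1, and another window of each of these genes held none. The CCAAT letters begin at -45 in Kif11 and -54 in Kif22.

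Among the 8 ciliary genes none reached 7 cells, where the share among all genes was 24.8%. In at least 1 cell 6 were detected (75%, against 58.2% of all genes). Dync2h1 and Dync2li1, of the dynein that works inside cilia, were detected in 6 and 4 cells. Kif9 was detected in 3, Kif17 in 2, Kif6 and Kif27 in cell 14 only, and Kif7 and Kif24 in none. Of the other 5 genes, Kif2a, which shortens microtubules in spindles and also in growing neurites, was detected in 11 cells (26.1, 956 and 6438). At a fixed signal of 1000 Kif2a was counted in 7 cells, and by the mean of its probe sets in 3. Kif26b was detected in cell 4, and Kif12, Kif26a and Kif28 in no cell.

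A list outside the symbol rule held proteins that work with these motors and the C-type kinesins Kifc2 and Kifc3. Of the 32 on the array, 23 reached 7 cells or more (71.9%, against 24.8% of all genes) and each was seen in at least 1 (against 58.2%). The dynactin filament protein Actr1a and its capping proteins Capza2 and Capzb were found in all 14. Pafah1b1 (Lis1), a regulator of dynein, was found in 13, as were Mapk8ip2 and Mapk8ip3, which tether cargo to kinesin-1, and Snph (syntaphilin), which anchors mitochondria in axons. Trak1, Trak2 and Rhot1, which link mitochondria to the motors, were each detected in 10 cells. Nde1, Mapk8ip1 and Kifc3 were each detected in 1.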

How the data were processed

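Each cell's RNA was copied into cDNA with an oligo-dT primer and amplified by 35 PCR cycles, which favours 3′ ends and leaves low transcripts to chance. A gene not detected may therefore still be expressed. The authors deposited 1 linear intensity for each probe set of the Mouse430_2 array, made with MAS5 (its release was not given in the sources used here). Arrays had a 2% trimmed mean of 500.0. Of 45101 probe sets, 64 were controls, and of the 45037 tested 34945 had 1 gene symbol, 932 several and 9160 were unnamed here. Of a gene's probe sets, the one whose mean log2 signal was highest stood for it, and probe sets with several genes were left out. Detection was a signal of at least 8 times the array median. The number of arrays limits the precision.

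Shares were compared cell by cell without a test. The motor genes, lists and rules were chosen with earlier results of these data known. Named genes were all axonal and mitotic members, with values for kinesin-1, kinesin-2, Kif1a, Kif1b, dynein-1, dynactin and detected mitotic genes. Other classes were given by counts, naming genes in at least 7 cells, plus genes whose other probe sets added at least 5 cells. Values of other genes were added after they were seen. Settings tried were other thresholds and probe set rules, leaving out cells 5 and 13 (fewest detected probe sets) or 3 and 6 (most rod markers), heavy chains alone, and updated symbols. Calculations used Python 3.11.15, numpy 2.4.6, pandas 2.3.3 and matplotlib 3.10.9 and were tested on simulated data.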

Additional observations from a re-analysis of the deposited data

How the results depend on the processing

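The difference between the axonal and the mitotic share moved furthest when a gene took the mean log2 signal of its probe sets. It went to 50.1 percentage points from 65.1 there, and lay between 53.2 and 68.8 under the other settings. With kinesin heavy chains alone, 7 of 14 axonal genes were detected in at least 7 cells, in place of 23 of 34. In every setting the axonal share was higher in each cell kept and 0 mitotic genes reached 7 cells (6 of 12 where cells were left out). No setting moved Kif2a to the mitotic genes. The genes detected in at least 7 cells numbered 18 to 27 of the motors and 18 to 26 of the axonal genes when the full lists were kept, and those in no cell 14 to 19. At 4 times the array median, Kif11 and Kif23 joined Kif22 as mitotic genes detected in at least 1 cell. Without cells 5 and 13 the difference was 68.8 points, and without cells 3 and 6 it was 66.3. Updated symbols changed no value. Of 352 cell counts of single genes under other thresholds and probe set rules, 314 were within 1.5 times the count reported and 38 moved further, 15 of these at a fixed signal of 1000 and 12 by the mean of a gene's probe sets, where Kif1b and Kif5c fell from 14 to 3 cells and Dctn4 from 11 to 2. Of the 826 values, 44 lay within 2-fold of the threshold, where a call depends on the threshold, 27 of them in axonal and 4 in mitotic genes.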
